A study of Mus musculus with 8 samples.

Results

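In the bone marrow of normal and leukaemic mice, 44 of 20207 genes were separated in every library of chronic myelogenous leukaemia (CML), counting neither transporters nor the families named below. Of these, 28 were higher and 16 were lower in all 4 CML libraries than in all 4 normal libraries. The members were chosen by their levels: 0.05 was added to each RPKM (reads mapped to a gene, scaled by its length in kilobases and by library depth), and a gene was kept where the lowest library of a disease group was at least 3 times the highest library of the other. Genes with symbols of the H2-, Serpina3, Trim, Ifi, Oas, Gbp, Hbb-, Slc and Abc families were left out, as were Gdpd3, Atp6v0e2, Atp10d, Rsad2, Bst2, Cish, Pim2 and F2r. Before names were left out, 35 genes (0.173% of the genes in the files) passed in the higher direction and 19 (0.094%) in the lower direction. Since these levels chose the genes, their separation between CML and normal mice is given as a description, without a test.

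CML is a myeloproliferative disease that arises in a haematopoietic stem cell carrying the BCR-ABL1 fusion tyrosine kinase, which signals through STAT5 and the RAS-MAPK cascade among others. The stem cell pool of the mouse lies among Lineage-negative marrow cells with cKit and Sca-1 on their surface (KLS+), whereas cells with cKit but not Sca-1 (KLS-) are committed progenitors. The 8 RNA libraries came from long-term (LT) stem cells sorted as CD150+CD48-CD135-KLS+, short-term (ST) stem cells sorted as CD150-CD48-CD135-KLS+, and KLS- progenitors. Normal LT and CML LT stem cells had 2 libraries each, and each other population had 1 library per disease group.

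Per the labels, all 8 samples were bone marrow of strain C57BL/6, healthy or with chronic myeloid leukemia. Normal LT replicate 1, normal ST and normal KLS- cells came from mice aged 2 months, normal LT replicate 2 from a mouse or mice aged 6 months, and no age was given for CML. The study's methods describe tet-inducible mice of the FVB/N background instead: CML-affected mice carried Tal1-tTA and TRE-BCR-ABL1, healthy littermates carried Tal1-tTA only, and males and females aged 8 to 12 weeks were sorted 5 weeks after doxycycline (DOX) was withdrawn from the drinking water. Tal1-tTA drives the oncogene in haematopoietic stem and progenitor cells. Both groups share this transgene only if the libraries came from mice as described there. The older normal LT library lies outside the described ages. Healthy mice of the strain named in the labels were also used in the study, for metabolite measurements. Whether the normal libraries carried the transgene is therefore not established. Where strain differed between the groups, strain and disease cannot be told apart. By their ages the 2 normal LT libraries came from different mice, and the labels do not say so for the 2 CML LT libraries. The Y-linked Ddx3y was at 0.0625 RPKM in CML LT replicate 1 and 17.5 RPKM in replicate 2, so their mice were not all the same. Whether the LT, ST and KLS- libraries of a group shared mice is not given, so p-values measure the spread between these libraries. Only LT cells had replicates, so this spread also holds any difference between CML and normal that varied with cell type.

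Facts that touch all 44 genes were few. The smallest steps among low RPKM values put the depth at an estimated 17.8 to 24.0 M reads per library (M for mega). The mouse genes Abl1 and Bcr overlapped between the groups, at 2.27 to 4.70 RPKM and 2.61 to 3.49 RPKM in CML against 3.04 to 4.48 and 2.77 to 3.48 in normal libraries, and they do not test for the human transgene. LT replicate 2 of each group held Y-linked transcripts, with Ddx3y at 31.0 RPKM in the normal and 17.5 RPKM in the CML library. Ddx3y was at most 0.0625 RPKM in the other 6 libraries. Xist, a transcript of female cells, was at 0.154 RPKM in normal LT replicate 2 and 13.5 RPKM in CML LT replicate 2. CML LT replicate 2 thus held transcripts of both sexes. No placed member lies on chromosome X or Y, and 3 members could not be placed. Slamf1, which encodes the CD150 used in the sort, was at 14.3, 10.7, 1.11 and 0.955 RPKM in the normal and 35.5, 25.4, 2.87 and 2.36 RPKM in the CML libraries, in the order LT, LT, ST, KLS-. It was higher in CML within each cell type, by 1.02 ± 0.16 (SE) on the log2(RPKM + 1) scale (limma, adjusted p = 0.00632), and was the 1 gene called of 5 on the list for the sorted populations. Without cell type as a term it was not called (adjusted p = 0.970, limma). Its part in the separation of the 44 genes was not tested. A sum of 6 progenitor markers was 9553 and 15052 RPKM in the KLS- libraries, 1742 and 1148 RPKM in CML LT replicate 2 and CML ST, and 129 to 237 RPKM in the other LT and ST libraries. The summed level of 7 neutrophil markers was 13.1 to 3878 RPKM in normal and 228 to 1009 RPKM in CML libraries, highest in normal LT replicate 2, so it overlapped between the groups. Of 3 genes listed because their transcripts differ between mouse strains, 1 was called between CML and normal libraries. H2-Ea, an MHC class II chain that C57BL/6 mice do not make, was at 0.0640, 0.0535, 0 and 0 RPKM in the normal libraries and at 1.23, 0.772, 1.58 and 0.143 RPKM in the CML libraries. It was higher in CML by 0.84 ± 0.17 (SE) on the log2(RPKM + 1) scale (limma, adjusted p = 0.0224), and it lost this call without normal LT replicate 1, normal ST, CML LT replicate 1 or CML ST, with no filter on low values, and without cell type as a term. Nnt, a mitochondrial transhydrogenase, averaged 21.8 RPKM in normal and 27.0 RPKM in CML libraries (limma, adjusted p = 0.430). It was at 24.7, 8.76, 25.9 and 27.7 RPKM in the normal and 25.6, 21.1, 25.9 and 35.5 RPKM in the CML libraries. The Nnt difference was 0.39 on the log2(RPKM + 1) scale, and 0.07 without normal LT replicate 2. Ifi202b, an interferon-inducible gene, was at most 0.0297 RPKM in normal libraries and at 0.135, 0.521, 0 and 10.4 RPKM in CML libraries (limma, adjusted p = 0.251). The part of strain in the separation of the 44 genes was not tested. In sorted bulk samples, fewer cells of a type and less RNA per cell cannot be told apart.

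Values of a group are given below in the order LT replicate 1, LT replicate 2, ST and KLS-. Separation means the lowest library of the higher group divided by the highest library of the lower group, each with 0.05 RPKM added. Higher members had a median separation of 5.46, from 3.06 to 110, and lower members a median of 4.90, from 3.13 to 8.52. Of the higher members 7 had a separation of 10 or more, whereas 0 of the lower members did. The level of the higher group averaged at least 1 RPKM for 37 members and at least 10 RPKM for 13, of which 11 were higher and 2 were lower in CML.

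**Figure D1:**
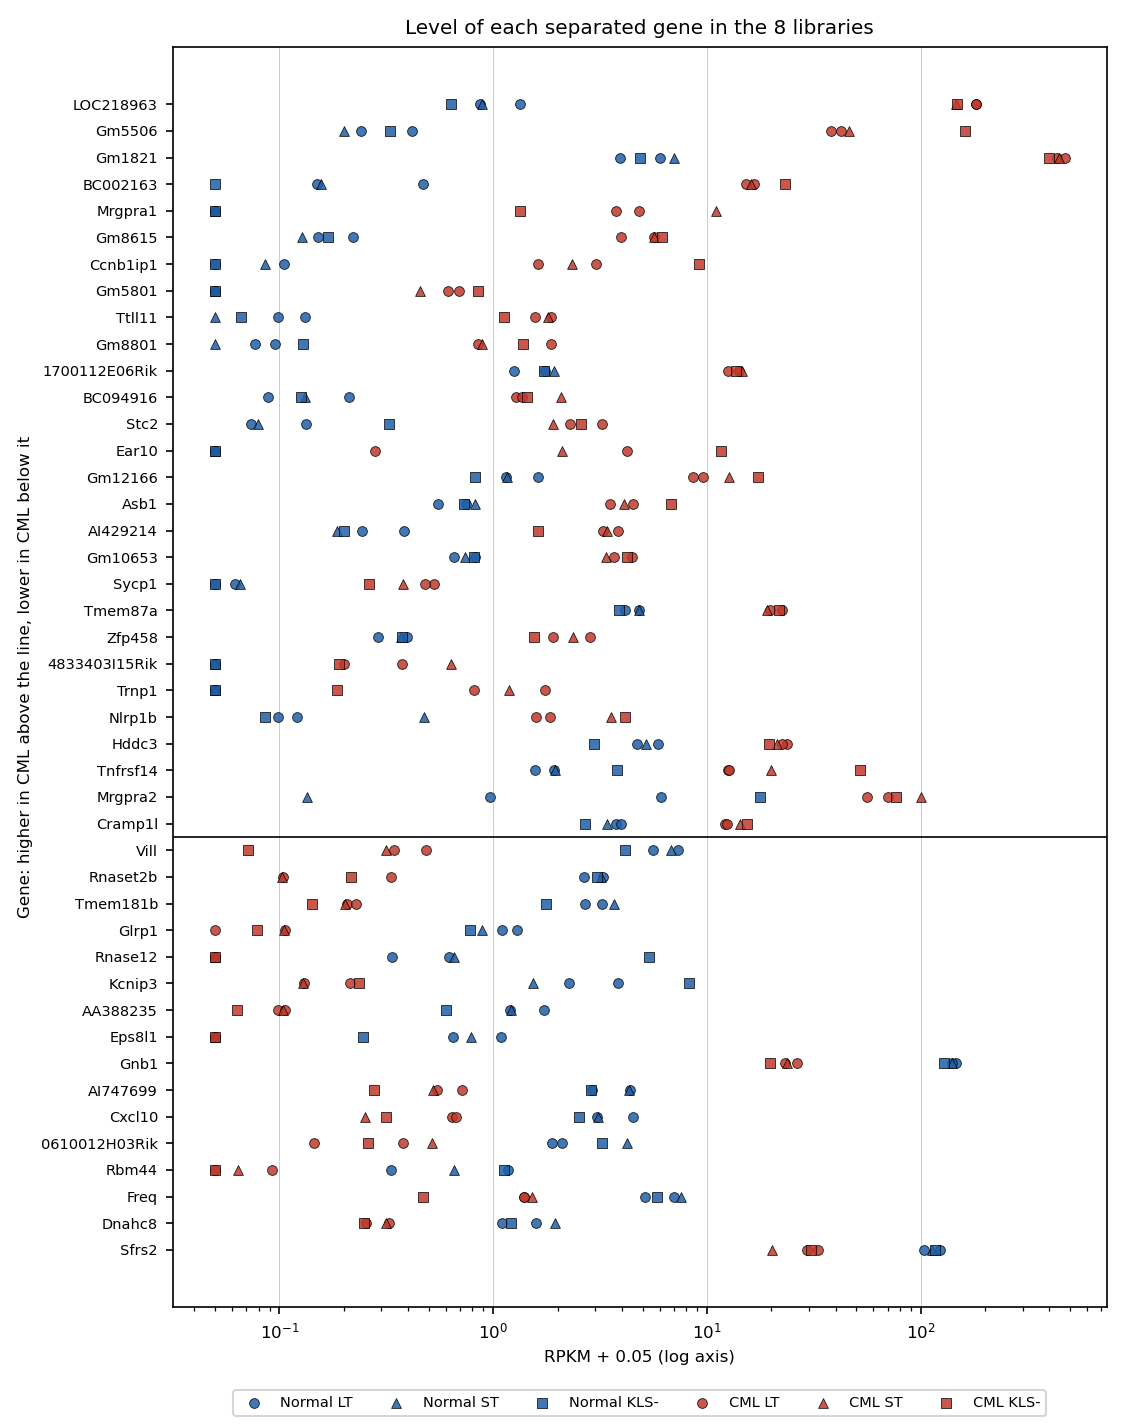
RPKM + 0.05 of each of the 44 genes (rows) in the 8 libraries on a log axis, blue for normal and red for CML, with circles for LT, triangles for ST and squares for KLS- libraries. The 28 genes above the line have all red points to the right of all blue points and the 16 below it the reverse, by at least 3 times, as the selection requires.

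Several of the members with the largest separation were copies of other genes. A processed pseudogene is an mRNA that was copied back into the genome, and it can differ from its parent gene at a few bases only, so that a read of 100 bases may match both. Of 39 members whose transcripts were compared with those of all annotated genes, 13 (33.3%) were at least 90% identical to another gene over 200 bases or more, against 3214 of 19597 genes (16.4%). At 97% identity there were 9 members (23.1%) against 1436 genes (7.33%). By direction, 11 of 25 higher and 2 of 14 lower members had such a copy at 90%. The annotation types 5 members as pseudogenes, and Gm12166 as both protein-coding and pseudogene at neighbouring loci of that name. These 6 members were higher in CML and made up 14.6% of the placed members, against 0.922% of the placed genes counted the same way. Tmem181b, lower in CML, was placed on a gene named Tmem181b-ps that the annotation types as protein-coding. How reads that match both copies were assigned is not given in the sources used here, and its part in these levels was not tested.

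To show how little separates these pairs, a stretch of 100 bases of the member and of its copy is printed for 4 of them, read from NCBI Build 37 (mm9), each on its own strand from 5′ to 3′, with the bases at which the pair differs in capitals. The first pair is the ubiquitin pseudogene Gm1821 on chromosome 14 (chr14:46704200-46704299, plus strand) and the polyubiquitin gene Ubb (chr11:62366275-62366374, plus strand).
Gm1821: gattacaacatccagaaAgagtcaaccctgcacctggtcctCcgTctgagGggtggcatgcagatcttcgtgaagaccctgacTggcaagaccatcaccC
Ubb: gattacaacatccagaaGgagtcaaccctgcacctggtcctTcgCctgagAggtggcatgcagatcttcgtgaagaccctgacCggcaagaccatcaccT
The next is BC002163 (chr16:42955749-42955848, plus strand) and Ndufs5, a subunit of respiratory complex I (chr4:123393218-123393317, minus strand).
BC002163: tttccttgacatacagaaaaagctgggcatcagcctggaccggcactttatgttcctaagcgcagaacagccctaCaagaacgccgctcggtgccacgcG
Ndufs5: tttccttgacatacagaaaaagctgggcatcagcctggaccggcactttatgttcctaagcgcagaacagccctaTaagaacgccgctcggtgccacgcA
Gm5801 (chr14:56629880-56629979, minus strand) is set beside Ube2j2, a ubiquitin-conjugating enzyme of the endoplasmic reticulum (chr4:155329344-155329443, plus strand).
Gm5801: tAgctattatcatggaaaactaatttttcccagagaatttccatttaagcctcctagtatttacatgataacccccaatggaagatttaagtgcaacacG
Ube2j2: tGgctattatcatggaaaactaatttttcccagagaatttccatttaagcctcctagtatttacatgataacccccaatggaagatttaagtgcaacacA
A pair that was lower in CML is Tmem181b (chr17:6466071-6466170, minus strand) with Tmem181a (chr17:6280598-6280697, plus strand), multipass membrane proteins.
Tmem181b: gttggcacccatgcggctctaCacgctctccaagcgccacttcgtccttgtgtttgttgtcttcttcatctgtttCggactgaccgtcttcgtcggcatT
Tmem181a: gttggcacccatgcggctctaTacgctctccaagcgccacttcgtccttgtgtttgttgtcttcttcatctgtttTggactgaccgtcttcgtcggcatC
These stretches hold 6, 2, 2 and 3 differing bases per 100, so many reads can be assigned by 1 or 2 bases only.

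Gm1821 had the highest level of all members. It was at 5.97, 3.89, 6.93 and 4.81 RPKM in the normal libraries and at 436, 471, 442 and 399 RPKM in the CML libraries. Its parent Ubb, which encodes a chain of ubiquitin units that is cut into free ubiquitin, was at 2124, 1811, 2204 and 1694 RPKM in normal and 599, 656, 603 and 551 RPKM in CML libraries. Ubb was therefore lower where its copy was higher, and no library of either gene overlapped between the groups. The aligned transcripts were 98.6% identical over 690 bases, and 28.1% of all 100-base windows held no difference. Converted to estimated reads, Gm1821 took 0.0884 to 0.129% of the reads of the pair in the normal libraries and 22.8 to 23.2% in the CML libraries. The pair together came to 2841 to 3696 RPM (reads scaled by library depth, not by length) in normal and 1198 to 1424 in CML libraries. Gm1821 had 2 copies with a listed level, and only Ubb is counted here.

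Gm5506 is a gene copy of the glycolytic enzyme enolase (Eno1). It was at 0.369, 0.190, 0.151 and 0.280 RPKM in normal and 38.0, 42.3, 46.3 and 161 RPKM in CML libraries, and the KLS- library was the highest of the CML libraries. Eno1 itself was at 11.97, 8.27, 11.4 and 18.2 RPKM in normal and 12.8, 12.7, 11.9 and 46.7 RPKM in CML libraries, which overlap. The transcripts were 99.5% identical, and 67.2% of windows held no difference. Gm5506 took 0.430 to 0.997% of the reads of the pair in normal and 49.3 to 56.0% in CML libraries. It had 2 copies with a listed level, and only Eno1 is counted in this share. Unlike Ubb, Eno1 was not lower where its copy was higher, and the pair together came to 44.8 to 98.3 RPM in normal and 135 to 535 in CML libraries.

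BC002163, the copy of Ndufs5, was at 0.1003, 0.417, 0.106 and 0 RPKM in normal and 16.5, 15.1, 16.0 and 23.1 RPKM in CML libraries. Ndufs5 overlapped between the groups, at 2.36, 2.39, 2.20 and 3.78 RPKM in normal and 1.33, 0.863, 2.43 and 4.41 RPKM in CML libraries. Gm8615, a pseudogene of the glucosamine-6-phosphate isomerase Gnpda1, was at 0.170, 0.101, 0.0773 and 0.120 RPKM in normal and 5.61, 3.93, 5.58 and 6.14 RPKM in CML libraries. Both copies, like Gm1821 and Gm5506 before them, exceeded their own normal maximum by more than 10 times in each CML library. Gm12166, a copy of the vesicle transport gene Sft2d1, was at 1.57, 1.10, 1.11 and 0.775 RPKM in normal and 8.60, 9.49, 12.6 and 17.3 RPKM in CML libraries. Gm5801, the copy of Ube2j2, was listed at 0 in the 4 normal libraries and at 0.568, 0.646, 0.405 and 0.803 RPKM in the CML libraries. Sft2d1 and Ube2j2 both overlapped between the groups, at 29.7 to 39.8 and 0.524 to 0.892 RPKM in normal against 23.9 to 41.8 and 0.368 to 0.909 RPKM in CML libraries.

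For other higher members the copy with a listed level was less similar. Gm10653 was among the 9 members with a copy at 97% identity. The copy compared by level was the ribosomal protein gene Rps2, at 91.3%. Gm10653 was at 0.769, 0.607, 0.691 and 0.761 RPKM in normal and 3.63, 4.40, 3.31 and 4.18 RPKM in CML libraries. It took 0.102 to 0.115% of the reads of the pair with Rps2 in normal and 0.482 to 0.673% in CML libraries, a small fraction of the level of Rps2. The closer copy is not counted in this share. Gm8801, partly identical to the phosphatase regulator Ppp1r10, was at 0.0269, 0.0449, 0 and 0.0792 RPKM in normal and 0.801, 1.82, 0.833 and 1.32 RPKM in CML libraries. For Gm8801 and for 12 other members the highest library of the lower group held fewer than 3 estimated reads, among the 41 members with an estimate. LOC218963 had the largest separation of all, with 1.28, 0.821, 0.838 and 0.583 RPKM in normal and 182, 181, 147 and 148 RPKM in CML libraries, but its symbol could not be placed in the annotation and its transcript was not compared.

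Of the lower members, Rnaset2b and Tmem181b had a near-identical copy. Rnaset2b encodes an RNase T2, an acid ribonuclease of the lysosome, and its transcript was 99.8% identical to that of Rnaset2a, with no difference in 81.8% of windows. Rnaset2b was at 2.62, 3.21, 3.14 and 3.01 RPKM in normal and 0.282, 0.0542, 0.0528 and 0.166 RPKM in CML libraries, while Rnaset2a was listed at 0.0504 RPKM or less in normal and 0.117 RPKM or less in CML libraries. The copy was thus near 0 in both groups. Tmem181b was at 3.17, 2.65, 3.62 and 1.71 RPKM in normal and 0.158, 0.179, 0.153 and 0.0916 RPKM in CML libraries, and Tmem181a overlapped between the groups, at 0.964, 1.30, 0.825 and 0.871 RPKM in normal and 1.34, 0.763, 0.688 and 1.38 RPKM in CML libraries. Tmem181b took 73.1 to 85.9% of the reads of the pair in normal and 8.41 to 24.5% in CML libraries. It had 3 copies with a listed level, and only Tmem181a is counted in this share.

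**Figure D2:**
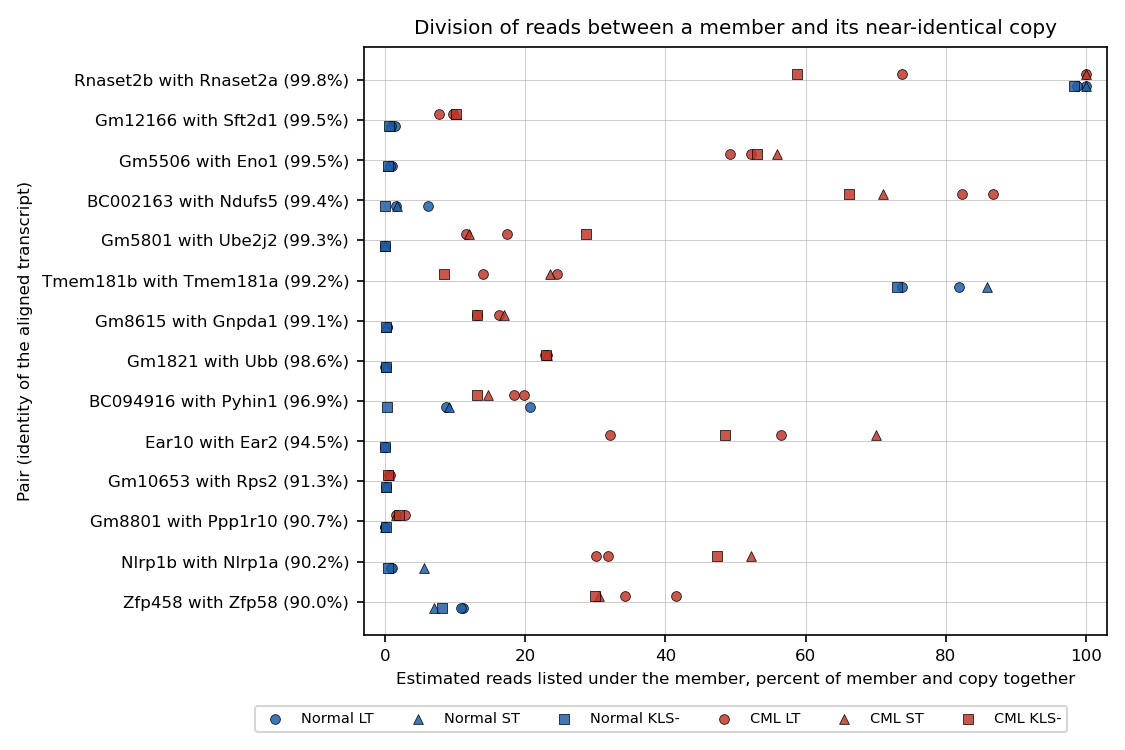
Estimated reads listed under a member as a percent of those under the member and its copy together (x axis), for 14 pairs ordered by identity (y axis), with 1 point per library, blue for normal and red for CML. The Gm1821 share is 0.0884 to 0.129% in normal and 22.8 to 23.2% in CML libraries, whereas the Tmem181b share runs the other way, from 73.1 to 85.9% down to 8.41 to 24.5%. Further copies of a member are not counted in its share.

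Apart from copies, the higher members held receptors and secreted proteins. Mrgpra1 and Mrgpra2 are Mas-related G protein-coupled receptors, a family best known from sensory neurons. Mrgpra1 was listed at 0 in the 4 normal libraries and at 3.69, 4.75, 11 and 1.29 RPKM in the CML libraries. Mrgpra2 was at 0.915, 6.05, 0.0845 and 17.7 RPKM in normal and 70.6, 56.1, 101 and 76.8 RPKM in CML libraries. Mrgpra2 varied widely within normal mice, where its KLS- library came closest to CML, and it lay just inside the threshold. Tnfrsf14, the TNF-receptor superfamily member HVEM that binds LIGHT and BTLA, was at 1.52, 1.88, 1.91 and 3.76 RPKM in normal and 12.5, 12.7, 19.8 and 51.9 RPKM in CML libraries. Stc2, a secreted stanniocalcin glycoprotein, was at 0.0839, 0.0234, 0.0297 and 0.275 RPKM in normal and 3.18, 2.24, 1.86 and 2.54 RPKM in CML libraries.

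Ear10 (chr14:44500385-44501224) belongs to the eosinophil-associated ribonucleases of the RNase A superfamily, found in granules of eosinophils and other myeloid cells. It was listed at 0 in the 4 normal libraries and at 4.19, 0.230, 2.04 and 11.5 RPKM in the CML libraries, a range of 50.1 times from the lowest, LT replicate 2, to the highest, KLS-. Other genes of the family that are no members showed the same high CML KLS- library, with Ear1 at 12.8, Ear2 at 11.5 and Ear6 at 12.3 RPKM there. In normal libraries, Ear1, Ear2 and Ear6 reached at most 0.347, 0.818 and 0.176 RPKM. Ear2 was 94.5% identical to Ear10, so part of the reads can match both. Ear10 was also among the 9 members with a copy at 97% identity.

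A group of higher members is known from meiosis or from cilia and microtubules. Ccnb1ip1 (HEI10) is a ubiquitin ligase needed for meiotic crossing over, and it was at 0, 0.0555, 0.0353 and 0 RPKM in normal and 2.98, 1.57, 2.28 and 9.08 RPKM in CML libraries. Sycp1, the transverse filament of the synaptonemal complex, stayed low at 0, 0.0122, 0.0155 and 0 RPKM in normal and 0.478, 0.432, 0.328 and 0.212 RPKM in CML libraries. Ttll11, an enzyme that adds glutamate chains to tubulin, was at 0.0489, 0.0816, 0 and 0.0160 RPKM in normal and 1.82, 1.52, 1.76 and 1.08 RPKM in CML libraries. Lower members of related function stood beside these. Rbm44, an RNA-binding protein of germ cells, was at 1.12, 0.283, 0.608 and 1.08 RPKM in normal and 0, 0.0428, 0.0139 and 0 RPKM in CML libraries, and the dynein heavy chain Dnahc8 was at 1.05 to 1.90 RPKM in normal and 0.200 to 0.275 RPKM in CML libraries. The directions within this group were therefore mixed.

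Innate immune sensors and signalling genes came next. Nlrp1b (chr11:70966604-71044235), which senses pathogen proteases and starts an inflammasome, was at 0.0482, 0.0709, 0.425 and 0.0356 RPKM in normal and 1.54, 1.80, 3.52 and 4.10 RPKM in CML libraries. Its neighbour Nlrp1a, 90.2% identical over a stretch of 296 bases, was at 7.12 to 10.6 RPKM in normal and 4.09 to 5.78 RPKM in CML libraries, so this pair had opposite directions. BC094916, a gene of the interferon-inducible PYHIN family, was at 0.0387, 0.162, 0.0820 and 0.0762 RPKM in normal and 1.23, 1.32, 2.03 and 1.39 RPKM in CML libraries. Its copy Pyhin1, at 96.9% identity, overlapped between the groups, at 0.416 to 29.0 RPKM in normal and 5.46 to 12.1 RPKM in CML libraries. Cxcl10, a chemokine induced by interferon, ran the other way, with 3.02, 4.45, 3.05 and 2.46 RPKM in normal and 0.591, 0.620, 0.202 and 0.264 RPKM in CML libraries. Members of this kind thus did not share a direction either, among the few that the selection kept. Genes of the Ifi, Oas, Gbp and Trim families, Rsad2 and Bst2 had been left out by name. Asb1, a SOCS-box adaptor of ubiquitin ligases, was at 0.695, 0.501, 0.774 and 0.684 RPKM in normal and 4.47, 3.47, 4.05 and 6.71 RPKM in CML libraries. Hddc3 (MESH1), a hydrolase of nucleotides, was at 5.83, 4.67, 5.14 and 2.93 RPKM in normal and 23.6, 22.3, 21.3 and 19.5 RPKM in CML libraries.

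The remaining higher members named in full span several functions. 1700112E06Rik was at 1.71, 1.20, 1.87 and 1.68 RPKM in normal and 14.0, 12.5, 14.6 and 13.6 RPKM in CML libraries, the least spread among CML libraries of any higher member (1.17 times). Tmem87a, a membrane protein of the Golgi, was at 4.76, 4.08, 4.79 and 3.82 RPKM in normal and 22.4, 19.8, 19.1 and 21.7 RPKM in CML libraries. The uncharacterised AI429214 was at 0.333, 0.193, 0.136 and 0.151 RPKM in normal and 3.80, 3.23, 3.35 and 1.58 RPKM in CML libraries. The first 2 of these held nearly one level across LT, ST and KLS- cells of CML mice, while AI429214 was lowest in KLS- cells. Zfp458, a zinc finger protein, was at 0.345, 0.240, 0.320 and 0.326 RPKM in normal and 2.80, 1.86, 2.31 and 1.497 RPKM in CML libraries. Cramp1l, the last gene inside the threshold, was at 3.70, 3.90, 3.37 and 2.65 RPKM in normal and 12.1, 12.4, 14.3 and 15.3 RPKM in CML libraries. Trnp1 and 4833403I15Rik, both listed at 0 in the 4 normal libraries, were at 0.136 to 1.69 and 0.140 to 0.583 RPKM in CML libraries.

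Among lower members, Gnb1 and Sfrs2 stood out by level. Gnb1, the β1 subunit through which heterotrimeric G proteins signal, was at 146, 140.2, 140.1 and 128 RPKM in normal and 26.2, 23.3, 23.7 and 19.7 RPKM in CML libraries, or 139 ± 7.45 (SD, n = 4) against 23.2 ± 2.67. The mean was 5.98 times lower in CML, and the normal libraries differed by no more than 1.14 times across LT, ST and KLS- cells. Sfrs2 (SC35, chr11:116711215-116714408), a splicing factor of the SR family, was at 104, 123, 113 and 117 RPKM in normal and 29.3, 33.2, 20.1 and 30.6 RPKM in CML libraries. Its mean was 4.03 times lower in CML, with the ST library lowest. Sfrs1, another SR factor and no member, overlapped between the groups at 9.91 to 19.6 RPKM in normal and 8.72 to 18.7 RPKM in CML libraries.

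Both calcium sensors among the members were lower in CML. Kcnip3 (DREAM, chr2:127282234-127347830), a calcium-binding protein that modulates potassium channels and represses transcription, was at 2.22, 3.79, 1.48 and 8.15 RPKM in normal and 0.165, 0.0804, 0.0786 and 0.185 RPKM in CML libraries. Freq (neuronal calcium sensor 1) was at 6.96, 5.10, 7.54 and 5.80 RPKM in normal and 1.34, 1.35, 1.46 and 0.417 RPKM in CML libraries. Vill (chr9:118961896-118980643), related to the actin-severing protein villin, was at 7.27, 5.53, 6.76 and 4.09 RPKM in normal and 0.436, 0.293, 0.264 and 0.0215 RPKM in CML libraries. Within CML, Freq and Vill were lowest in KLS- cells. Kcnip3 was low in every CML library, with ST and LT replicate 2 nearly equal at 0.0786 and 0.0804 RPKM. Rnase12, of the RNase A superfamily, was at 0.572, 0.287, 0.607 and 5.30 RPKM in normal libraries, highest in KLS-, and was listed at 0 in the 4 CML libraries. AI747699 was at 4.33, 2.86, 4.26 and 2.81 RPKM in normal and 0.497, 0.666, 0.473 and 0.227 RPKM in CML libraries. AA388235 was at 1.69, 1.15, 1.16 and 0.549 RPKM in normal and 0.0488, 0.0568, 0.0542 and 0.0131 RPKM in CML libraries. Of these members, Freq kept the highest levels in CML. 0610012H03Rik was at 2.05, 1.83, 4.19 and 3.17 RPKM in normal and 0.0958, 0.327, 0.470 and 0.211 RPKM in CML libraries. Glrp1 was at 0.732 to 1.24 RPKM in normal and at most 0.0561 RPKM in CML libraries, and Eps8l1, related to an actin regulator, was at 0.196 to 1.03 RPKM in normal libraries and listed at 0 in the 4 CML libraries.

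At the threshold, the separation was 3.16 for Mrgpra2, 3.13 for Sfrs2 and 3.06 for Cramp1l, and it was 2.99 for Xrcc6bp1, 2.94 for Selenbp2 and 2.90 for Zfp691, the nearest genes outside. The 3 genes outside were all higher in CML, with Xrcc6bp1 at 1.95 to 2.68 RPKM in normal and 8.11 to 9.70 RPKM in CML libraries. Members with 0 in all 4 libraries of the lower group numbered 7, of which 5 were higher and 2 lower in CML.

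The placed members fell on 14 chromosomes. Of 41 placed members, 6 (14.6%) lay on chromosome 14, which holds 3.47% of the placed genes, and 5 (12.2%) on chromosome 17, which holds 4.96%. Chromosome 2 also had 5 members (12.2% against 8.63% of genes), chromosomes 1, 7 and 11 had 4 each and chromosome 4 had 3. Chromosomes 5, 9 and 18 had 2 members each and chromosomes 3, 8, 13 and 16 had 1 each. No placed member lay on chromosomes 6, 10, 12, 15 or 19. On chromosome 14, Gm1821, Ccnb1ip1, Gm5801, Ear10 and 1700112E06Rik were higher and Rnase12 was lower. All but 1700112E06Rik of these lay with each neighbour less than 5 Mb away. Chromosome 17 held Gm8801 and Cramp1l in the higher direction and Rnaset2b, Tmem181b and Dnahc8 in the lower direction.

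**Figure D3:**
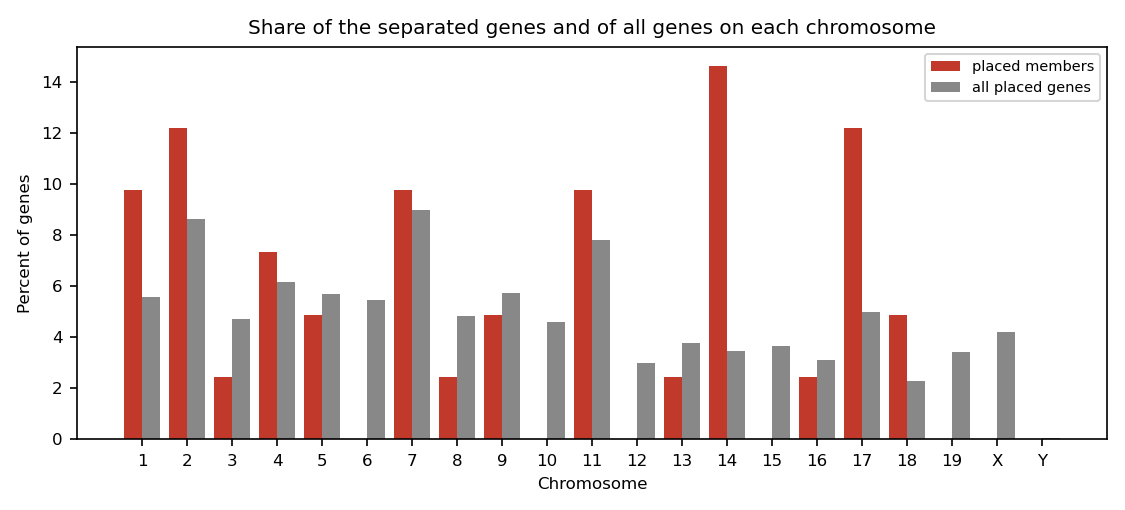
Percent of the 41 placed members (red bars) and of all 19742 placed genes (grey bars) on each chromosome. Chromosome 14 holds 14.6% of members and 3.47% of genes, chromosome 17 holds 12.2% and 4.96%, and 7 chromosomes have no placed member.

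Neighbours no more than 1 Mb apart formed 5 pairs with 10 members (NCBI Build 37). With genes that passed the fold but were left out by name, there were 8 runs of 17 genes, 12 of them members. Gm8801 then lay with H2-Bl and H2-Tw3, BC094916 with Ifi205, and H2-DMb2 with H2-Ob. At 5 Mb, Dnahc8, H2-DMb2, H2-Ob, Gm8801, H2-Bl and H2-Tw3 formed a run on chromosome 17. The pairs described here are of members only. Mrgpra1 and Mrgpra2 lay 72.1 kb apart on chromosome 7 (chr7:54590245-54784232) and were both higher, with no other gene of the files between them. Mrgpra2 stands for a pair of neighbouring loci, Mrgpra2a and Mrgpra2b. Tmem181b and Rnaset2b lay 694 kb apart on chromosome 17 (chr17:6439626-7202542) and were both lower. Between them, Tagap1, a GTPase-activating protein of activated T cells, was at 8.59 to 16.1 RPKM in normal and 4.52 to 6.55 RPKM in CML libraries. Rshl2b there was at 0.764 to 1.35 RPKM in normal and 0.266 to 0.578 RPKM in CML libraries. Both lay below the normal range in every CML library without reaching 3 times, whereas Ezr between them differed by -0.03 on the log2 scale.

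The other 3 pairs held members of opposite direction. Rbm44 (lower) and Asb1 (higher) lay 370 kb apart on chromosome 1 (chr1:93041680-93456167), with 10 other genes between. Traf3ip1, a component of ciliary transport next to Asb1, was at 0.348 to 0.464 RPKM in normal and 1.01 to 1.22 RPKM in CML libraries. The other 6 expressed genes of this stretch differed by less than 1 on the log2 scale. Ccnb1ip1 (higher) and Rnase12 (lower) lay 261 kb apart on chromosome 14 (chr14:51408924-51676917), and the 7 expressed genes between ranged from -0.65 for Pnp1 to 0.00 for Tep1. Within 1 Mb beyond this pair, the angiogenin gene Ang was at 0.941 to 2.60 RPKM in normal and at most 0.537 RPKM in CML libraries. Ear6, also there, went the other way, averaging 0.0441 RPKM in normal and 3.65 RPKM in CML libraries, with overlap between the groups. Tnfrsf14 (higher) and Gnb1 (lower) lay 563 kb apart on chromosome 4 (chr4:154296319-154933378), and the 6 expressed genes between ranged from -0.23 to 0.31. Of the expressed genes within and 1 Mb beyond each pair, those within 1 of equality on the log2 scale numbered 10 of 11, 12 of 14, 9 of 11, 32 of 35 and 9 of 10, in the order of chromosomes 1, 14, 17, 4 and 7.

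**Figure D4:**
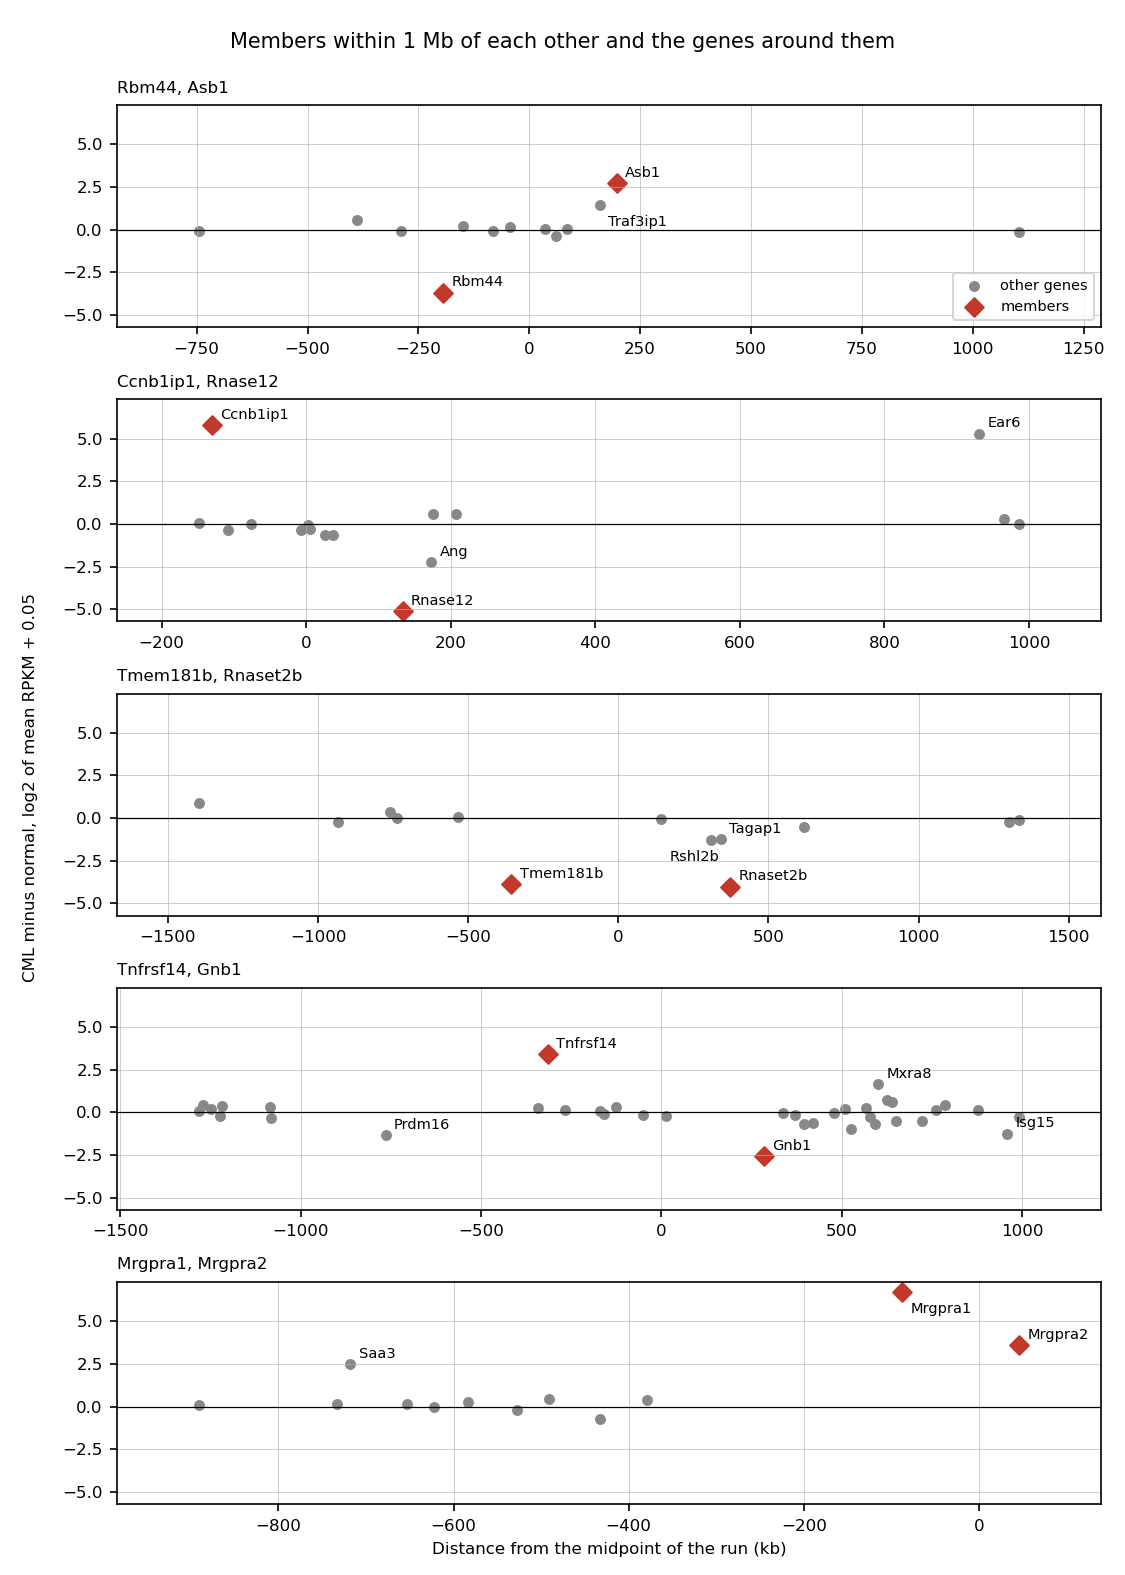
CML minus normal difference of the log2 mean RPKM + 0.05 for the members (red diamonds) and the other expressed genes (grey points) against the distance in kb from the midpoint of each of the 5 pairs. Members of 3 pairs lie on opposite sides of 0, those of Tmem181b with Rnaset2b both lie below and those of Mrgpra1 with Mrgpra2 both lie above.

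Differences between cell types were tested within the same 8 libraries, with disease as a term in the limma fit of log2(RPKM + 1) over 12561 genes. In the contrast of KLS- progenitors with LT and ST stem cells, 6 of 44 members passed an adjusted p of 0.05 (13.6%), against 48.7% of all genes tested. The selection itself favours genes with little spread between cell types, so this count is no independent measure of the members. The median absolute difference was 0.21 for the members and 0.40 for all genes. By direction, 4 members were higher and 2 were lower in KLS- cells.

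The largest of these was Tnfrsf14, which was higher in KLS- cells by 1.21 ± 0.22 (SE, limma, adjusted p = 0.00236). Its KLS- library was the highest of both the normal and the CML libraries. It kept the call when any single library was left out except CML KLS-, without which the difference was 0.73. Gm5506 was higher by 0.98 ± 0.35 (limma, adjusted p = 0.0432), and this rested on the CML KLS- library, without which it was 0.05. The call of Gm5506 was also lost without normal ST, CML LT replicate 1, CML LT replicate 2 or CML ST. Kcnip3 was higher by 0.83 ± 0.29 (limma, adjusted p = 0.0435), and without the normal KLS- library it was 0.16. The call of Kcnip3 was also lost without normal LT replicate 1, normal ST, CML LT replicate 1 or CML LT replicate 2. Rnase12 was higher by 1.03 ± 0.37 (limma, adjusted p = 0.0471), which came from the normal KLS- library alone, since it was at 0 in CML, and without that library it was -0.01. It kept its call only when CML KLS- was the library left out. Vill was lower in KLS- cells by 0.47 ± 0.14 (limma, adjusted p = 0.0249) and Hddc3 by 0.41 ± 0.15 (limma, adjusted p = 0.0490). Vill lost its call without normal ST or either KLS- library, and Hddc3 kept its call only without normal LT replicate 2 or CML KLS- and was at -0.18 without normal KLS-. Without normal LT replicate 1, 3 members were called, and without normal ST, CML LT replicate 1 or CML LT replicate 2, 2 members.

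Between ST and LT stem cells, 0 of 44 members passed in limma, against 4.87% of all genes. Here too the selection favours genes with little spread between cell types, so this count is no independent measure of the members. Among the 44 members, 2 had an unadjusted p under 0.05 in limma. Those were 0610012H03Rik, with an ST minus LT difference of 0.55 ± 0.17 (limma, adjusted p = 0.104), and Nlrp1b, with 0.59 ± 0.20 (limma, adjusted p = 0.137). Without the CML KLS- library, which lies outside this contrast but enters the fit, 1 member passed. The levels by library had no overlap of CML and normal cells for any member in either stem cell population, as the selection requires.

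**Figure D5:**
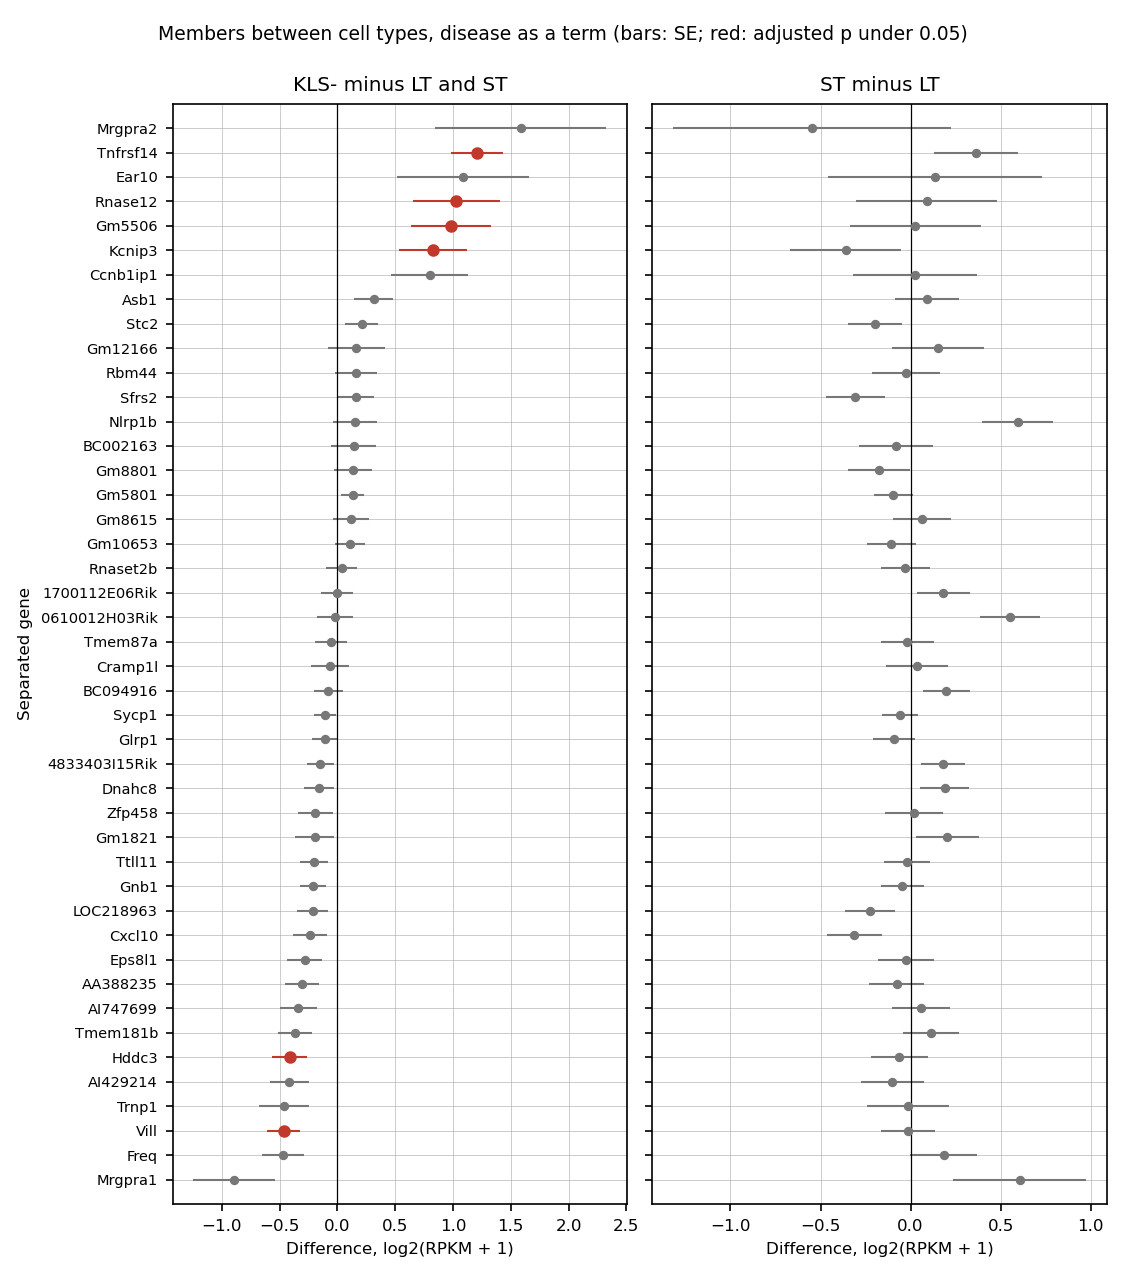
Differences of the 44 members (rows) between KLS- and stem cells (left) and between ST and LT stem cells (right) on the log2(RPKM + 1) scale, with bars for the SE and red points for an adjusted p under 0.05 in limma. On the left 6 members are red, Tnfrsf14 with 1.21 having the lowest adjusted p, and on the right none is.

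Genes known to respond to BCR-ABL1 signalling were compared for reference from lists that were chosen with earlier results of these data known, and 0 of them were members. In the CML against normal contrast with cell type as a term, limma called 6.18% of all genes. Of 15 STAT5 targets, 2 were higher and 0 lower: Cish, a STAT5 feedback inhibitor, by 1.03 ± 0.16 (adjusted p = 0.00577) and the survival kinase gene Pim2 by 0.99 ± 0.22 (adjusted p = 0.0350). Their names are among those left out of the selection, but neither passed the fold. Cish was at 1.84 RPKM in CML KLS- cells and 12.8 RPKM in normal LT replicate 2. Pim2 was at 2.56 RPKM in CML KLS- and 10.8 RPKM in normal ST cells. The median difference of the 15 genes was 0.14, and the count called ran from 1 to 4 when single libraries were left out, with 4 without either KLS- library and 1 without any other single library. Of 11 RAS-MAPK feedback genes tested, 0 were higher and 2 were lower: Dusp6, a phosphatase of ERK, by 0.88 ± 0.19 (adjusted p = 0.0301) and Spry1, an inhibitor of receptor tyrosine kinase signalling, by 0.85 ± 0.17 (adjusted p = 0.0214). Their median was -0.46, and 0 genes were called without normal ST, normal KLS-, CML LT replicate 1, CML ST or CML KLS-.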

How the data were processed

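RNA of sorted LT, ST and KLS- cells of normal and CML mice was sequenced by the authors with a low-input oligo-dT kit in paired-end reads of 100 bases and mapped to mm9 (NCBI Build 37). The deposited values are RPKM per gene, 1 library per file. Gene models, use of strand and treatment of reads with several matches are not given in the sources used here, so overlapping and near-identical genes can share reads.

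The members and gene lists were chosen with earlier results of these data known. Symbols were placed on GENCODE M1 by name or synonym, and 3 members (LOC218963, AA388235, AI747699) were not placed. Transcripts were compared with blastn 2.17.0. Estimated reads are RPKM times exon length times a depth read from the steps of low values, and cover counting error only.

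Differences between cell types were tested with limma 3.58.1 (R 4.3.3, trended variance) on log2(RPKM + 1) for 12561 genes with a total of at least 1 RPKM, with disease as a term, 4 residual degrees of freedom and Benjamini-Hochberg adjustment at 0.05. The pseudocount understates changes of low genes. Scripts were tested on simulated data. Members named in full were the 30 with the largest separation among those averaging at least 1 RPKM in the higher group, plus neighbours, members at the threshold and called members. Glrp1, Eps8l1, Sycp1, Gm5801, Dnahc8, Nlrp1b, Trnp1 and 4833403I15Rik were named outside this rule so that all 44 are accounted for. Sfrs1, Ear1, Ear2, Ear6 and genes beside members were chosen after their values were seen. Alternatives were other pseudocounts, folds, scalings and filters, fits without the second term and each library left out.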

Additional observations from a re-analysis of the deposited data

Results flagged for a closer look

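Of the 44 members, 4 had a KLS- library beyond all 3 stem cell libraries in opposite directions in CML and normal mice, and with 1 KLS- library per disease group the difference was not tested. BC002163 was highest in KLS- cells of CML mice, at 23.1 RPKM, and lowest, at 0, in those of normal mice. Its highest normal library held only 3.21 estimated reads, so the order of its normal libraries cannot be read as a direction. Gm12166 was at 17.3 RPKM in CML KLS- cells, above 8.60 to 12.6 in CML stem cells, and at 0.775 in normal KLS- cells, below 1.10 to 1.57 in normal stem cells. Nlrp1b was at 4.10 RPKM in CML KLS- cells, above 1.54 to 3.52, and at 0.0356 in normal KLS- cells, just below 0.0482 to 0.425. Apart from 0.425 in ST cells, its normal levels were also near 0. Cramp1l was at 15.3 RPKM in CML KLS- cells, above 12.1 to 14.3, and at 2.65 in normal KLS- cells, below 3.37 to 3.90. No group had enough libraries to test for a sample apart from its replicates.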

How the results depend on the processing

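The selection gave 71 members with a pseudocount of 0.01, 39 with 0.1 and 13 with 1, 94 at a fold of 2 and 22 at a fold of 5. With a library left out it gave 47 to 78, most without normal KLS- (78) or CML KLS- (72). Leaving out a library can only relax this rule, so the 44 members had to remain among them with their direction. Upper-quartile scaling kept 42 and quantile normalization 40 members. Members in neighbouring runs numbered 2 at a gap of 0.25 Mb and 18 at 5 Mb, against 10 at 1 Mb.

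Without a filter on low values, 1 member and 5577 genes were called between KLS- and stem cells, 283 genes between ST and LT and 418 between CML and normal. Without a disease term, 0 members and 5012 genes were called between KLS- and stem cells (limma) and 287 genes between ST and LT. The members were chosen for their difference by disease, which then enters their residual spread, so the count of 0 follows from the selection. Without a cell type term 128 genes were called between CML and normal. With a library left out, genes called between KLS- and stem cells ran from 3178 to 6338 (3178 without CML KLS-, 3657 without normal KLS-) and members from 2 to 9. Between ST and LT they ran from 110 (without CML ST) to 718 genes and from 0 to 1 members, and between CML and normal from 320 (without normal ST) to 755 genes. The KLS- minus stem cell difference of Rnase12 ran from -0.0147 (without normal KLS-) to 2.0731 (without CML KLS-). The cause of the other shifts was not tested. No paired analysis was possible because the normal LT libraries carry ages and no replicate numbers, and the compared cell types share fewer than 2 numbers. With 1 library of ST and KLS- cells per disease group, the depth and the number of libraries limit what these contrasts can show, and 13 members held under 3 estimated reads in every library of the lower group.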
